A study of Rattus norvegicus with 48 samples.

Results

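The miRNAs of the imprinted miR-379 to miR-410 cluster were described in the amygdala and the ventral striatum of adolescent rats. The members were every mature and precursor name in the deposited table whose miRNA number was on a fixed list for this cluster, chosen by number and not by level. Names with numbers off that list, such as mir-544, were not counted as members. They came to 91 of the 1063 names of the table, 59 of its 612 mature and 32 of its 451 precursor names. A precursor name holds the reads assigned to a hairpin, and a mature name those assigned to one arm of it, 5p or 3p, so both kinds share reads. A precursor name can also hold reads that no arm name holds.

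Small RNA was sequenced from 48 pools of brain RNA, each from 3 Long Evans rats of one sex, 42 days old. Dams had been injected with ethanol or with saline on 1 day of pregnancy, and their young were housed from weaning with littermates (non-enriched) or with unfamiliar rats of the same sex and age from an untreated dam (socially enriched). Each region had 24 libraries and each of the 4 treatment groups 6 per region, 3 of female (F1 to F3) and 3 of male rats (M1 to M3). The young of saline-injected dams are the controls. Ethanol was compared with saline within the non-enriched [N(EvC)] and within the enriched rats [S(EvC)], and enriched with non-enriched housing within the controls [C(SvN)] and within the ethanol-exposed rats [E(SvN)]. The prefixes A and V name the region. The regions and the sexes were compared as well. Both regions were dissected from the same rats, so the region comparison sets tissues of the same animals side by side, but the labels do not say which pools share rats, and the fit treats the 48 pools as separate. All rats had been through a test of social interaction before the tissue was taken, and a pool hides the spread between its 3 rats.

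The values are RPM, reads scaled to a total of 1000000 over the mature names of a library. From the smallest step between values, libraries held 363135 to 1370426 mature reads, with a median of 977826, and 3 reads were worth 2.33 to 8.26 RPM in the amygdala and 2.19 to 4.06 RPM in the ventral striatum. The neuronal miR-124-3p ranged from 1476 to 3249 RPM in the amygdala and from 1699 to 2882 RPM in the ventral striatum, and miR-9a-5p, another miRNA of neural tissue, was at 21813 RPM or more in every library. In such bulk RNA, fewer cells of a type and less RNA per cell cannot be told apart.

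The cluster lies in the Dlk1-Dio3 domain, an imprinted region whose non-coding RNAs are transcribed from the maternal chromosome. Its hairpins sit in a row within a long non-coding transcript, are found in placental mammals and are mostly expressed in the brain. Several of its miRNAs are known from neurons: miR-134 limits the growth of dendritic spines through Limk1, and miR-134, miR-329 and miR-381 take part in the activity-dependent growth of dendrites.

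All 59 mature members were matched by name to RefSeq sequences on the rat assembly GRCr8, where the 30 hairpins span 36394 bases at chr6:134543445-134579838. The mature RNAs are 18 to 25 bases long and carry 54 different seeds (bases 2 to 8, which pair with target mRNAs), so most members do not share a seed with another. The first set shows the 3 most abundant members together with miR-381-3p, which resembles one of them, and the seeds are in capitals.
miR-410-3p: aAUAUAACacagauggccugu
miR-541-5p: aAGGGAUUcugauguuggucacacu
miR-300-3p: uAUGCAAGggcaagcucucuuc
miR-381-3p: uAUACAAGggcaagcucu
Over the 18 bases of miR-381-3p, miR-300-3p differs from it at 1 base inside the seed (A4G, positions counted from 1 at the 5′ end of miR-381-3p). Only 4 seeds occur in more than 1 member.

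The second set holds the pairs of neighbors or near copies on whose reads later results turn.
miR-379-5p: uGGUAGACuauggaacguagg
miR-411-5p: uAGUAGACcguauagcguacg
miR-376b-5p: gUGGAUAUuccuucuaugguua
miR-376c-5p: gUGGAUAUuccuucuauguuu
The first pair, from neighboring hairpins, differs at 7 of 21 positions, one of them in the seed (G2A, counted from the 5′ end of miR-379-5p). The pair from the miR-376 family, whose primary transcripts are known to be edited in the brain, shares the seed UGGAUAU and differs at 1 of 21 positions (G19U, counted from the 5′ end of miR-376b-5p), so a read that ends early or carries an error could be assigned to either.

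The third set is made of members that differed between the regions.
miR-409b: aGGGGUUCaccgagcaacauucg
miR-487b-3p: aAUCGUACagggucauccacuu
miR-369-3p: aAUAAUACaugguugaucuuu
miR-543-3p: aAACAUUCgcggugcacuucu
miR-323-3p: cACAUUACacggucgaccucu
miR-485-3p: cAUACACGgcucuccucucuuc
miR-496-3p: aGUAUUACauggccaaucucc
miR-409b is annotated on the minus strand at chr6:134579229-134579251, where its reverse complement contains all 20 bases of miR-409a-3p. The name miR-409a-3p was not used here, so the level given for miR-409b may belong to either strand. Of the precursors, mir-409a held a mean of 1419 RPM and mir-409b of 218 RPM. In the same way miR-369-5p, miR-382-3p and miR-539-5p had the same value in every library as the antisense names miR-3578, miR-3592 and miR-3576, so these pairs cannot be told apart.

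A few members held most of the cluster's reads. Of the 59 mature members, 8 had a mean of 1000 RPM or more over the 48 libraries, 14 lay between 100 and 1000 RPM, 16 between 10 and 100 RPM and 21 below 10 RPM. A read covers a whole mature miRNA, so these levels need no correction for length. They rank miRNAs by reads, and whether the library preparation captured different miRNAs equally was not tested. miR-410-3p had the highest mean, 11552 RPM or 33.2% of the cluster, and was the 19th most abundant of all mature names. It was followed by miR-541-5p, a miRNA known to act on synapsin, with 8080 RPM (23.2%), and by miR-300-3p with 4270 RPM (12.3%). The next were miR-409b with 1619, miR-487b-3p with 1426, miR-380-3p with 1085, miR-379-5p with 1078, miR-411-5p with 1050, miR-376b-3p with 649 and miR-376b-5p with 593 RPM. miR-380-3p, miR-379-5p and miR-411-5p, next to each other in this order, differed by far less than their spread over libraries.

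Some other members known from neurons, picked here by name, had fewer reads than miR-541-5p. miR-134-5p had a mean of 153.7 RPM, miR-329-5p of 193 RPM and miR-485-5p, whose target SV2A is a synaptic vesicle protein, of 142 RPM. The mature miR-381-3p was close to 0 (0.217 RPM) although its precursor name held 435 RPM, while miR-300-3p, its near copy, held 4270 RPM. The sources used here do not state to which name a read with several matches was given. Some other precursor names also stood above their arms together. mir-411 held 2189 RPM, against 1050 for miR-411-5p and 15.5 for miR-411-3p, and mir-758 held 310 RPM, against 74.6 for miR-758-3p and 0.164 for miR-758-5p. Precursor names are scaled to a total of their own, and mir-410, at 9991 RPM, was below miR-410-3p. Mature levels and arm shares count only reads given to mature names. At the low end miR-494-5p, miR-381-5p and miR-299b-5p were above 0 in too few libraries to be tested.

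The joint level, the sum of the mature members, took 3.29% of the mature reads of an amygdala library and 3.67% of those of a ventral striatum library on average. In the amygdala it was 32866 ± 6002 RPM (SD, n = 24), with a lowest value of 20585, a median of 32601 and a highest of 44418 RPM. In the ventral striatum it was 36709 ± 2313 RPM (SD, n = 24), from 32448 over a median of 37083 to 41049 RPM. The regions overlapped, and the spread over libraries was wider in the amygdala, where the highest library was 2.16-fold above the lowest and the coefficient of variation was 18.3%, than in the ventral striatum, with 1.27-fold and 6.30%. The log2 ratio of the amygdala mean to the ventral striatum mean was −0.16, and −0.10 after median-ratio rescaling. Being a score over chosen members, it was not tested.

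**Figure D1:**
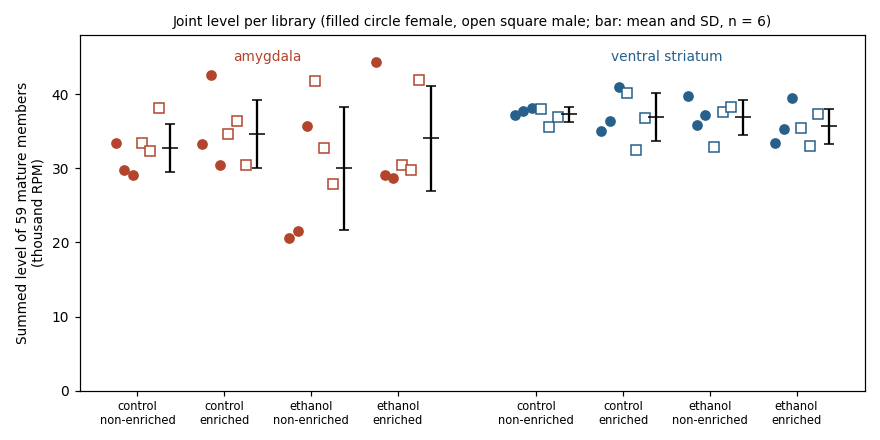
Joint level of the 59 mature cluster members per library (summed RPM, an axis unit being 1000 RPM, linear from 0), by region and treatment group, with filled circles for females, open squares for males and bars for the group mean and SD (n = 6). The amygdala libraries run from 20585 to 44418 RPM and the ventral striatum libraries from 32448 to 41049 RPM.

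By treatment group, the ethanol-exposed non-enriched amygdala had the lowest mean and the widest spread. Its 6 libraries were at 20585 (F1), 21524 (F2), 27858 (M3), 32794 (M2), 35775 (F3) and 41745 RPM (M1), with a mean of 30047 ± 8297 RPM (SD, n = 6). The first 3 of these were the 3 lowest of the whole region, and the highest was among its top 4.

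The control non-enriched amygdala had 32723 ± 3246 RPM, the ethanol-exposed enriched 34060 ± 7124 RPM and the control enriched 34633 ± 4533 RPM (SD, n = 6 each), and every pair of groups overlapped. In the ventral striatum the 4 group means lay between 35655 ± 2418 RPM (ethanol-exposed enriched) and 37281 ± 971 RPM (control non-enriched), likewise with overlap. The ethanol effect on the joint level was −8.18% in the non-enriched amygdala, the enrichment effect 13.4% in the ethanol-exposed amygdala, and the 4 effects in the ventral striatum lay between −3.58% and −0.80%.

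The 3 amygdala libraries with the lowest joint level were also those with the most miRNAs known from the choroid plexus and from ciliated cells of the ventricle wall. A list of such miRNAs (the miR-34b/c and miR-449 families, miR-204, miR-211, miR-448, miR-1298, miR-1264 and miR-1912), chosen after the values were seen and with 12 names in the table, summed to 3679 to 145598 RPM in the amygdala (median 17927) and to 4582 to 12479 RPM in the ventral striatum (median 7577). All 12 were above 0 in at least 1 library of each region. By group the amygdala medians were 37890 RPM (ethanol-exposed non-enriched, range 4107 to 145598), 9759 RPM (control non-enriched, 3679 to 41933), 19537 RPM (ethanol-exposed enriched, 4780 to 46540) and 18277 RPM (control enriched, 3891 to 46820).

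Ethanol-exposed non-enriched F2, M3 and F1 had the highest sums of this list, the only ones above 50000 RPM. Across the 24 amygdala libraries the log2 sum of the list correlated with the log2 joint level at r = −0.61, and across the 24 ventral striatum libraries at r = 0.56. Both measures are parts of one total per library, and these correlations are descriptions. Without the 3 libraries the amygdala mean of the joint level was 34229 ± 4924 RPM (SD, n = 21), r was −0.41, the log2 ratio to the ventral striatum −0.10, and the other 3 ethanol-exposed non-enriched libraries had 36771 ± 4558 RPM (SD, n = 3), above the control non-enriched mean. What part such cells had in the joint level was not tested.

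Some members changed with the library number in the sample labels, a grouping noticed after the values were seen. In each region, every sex and treatment group has 3 libraries, and their numbers put them in order as the first, the second and the third of their group. Libraries were multiplexed in 6 sets of 8, but the labels do not say which libraries formed a set or what the number stands for, and the replicate number equals this order in 35 of 48 libraries. Each order holds 8 libraries per region, 1 of each sex and treatment, so it is balanced over the treatments. In the amygdala the second had 363135 to 622123 mature reads against 669389 or more in the others, and all 3 overlapped in depth in the ventral striatum.

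Over all names tested, 89 of 910 (9.78%) in the amygdala and 120 of 933 (12.9%) in the ventral striatum differed by this order at an adjusted p under 0.05 (limma). Among the members it was 5 of 84 (5.95%) for amygdala and 13 of 86 (15.1%) for ventral striatum libraries, shares near those over all names.

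The sharpest case was a pair of neighbors. In the amygdala miR-411-5p had a mean of 1347 ± 224 RPM in the first libraries, 691 ± 103 RPM in the second and 794 ± 141 RPM in the third (SD, n = 8 each), and in the ventral striatum 1350 ± 109, 1368 ± 146 and 750 ± 76.1 RPM. The third ventral striatum libraries, at 635 to 882 RPM, lay below all 16 others of the region. miR-379-5p went the other way, with means of 849, 1368 and 1245 RPM in the amygdala and 925, 882 and 1199 RPM in the ventral striatum.

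Their ratio, miR-411-5p to miR-379-5p, therefore fell into separate ranges. In the first amygdala and the first and second ventral striatum libraries it was 1.34 to 1.93, and in the second and the third amygdala and the third ventral striatum libraries 0.449 to 0.708. No library lay between them, whatever its treatment or sex. These ranges are not balanced over the regions, since the lower one holds more amygdala than ventral striatum libraries.

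**Figure D2:**
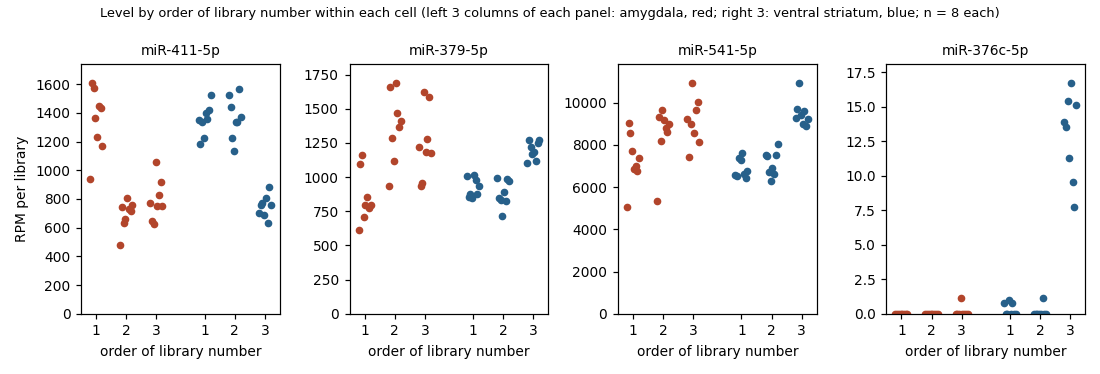
RPM per library of miR-411-5p, miR-379-5p, miR-541-5p and miR-376c-5p (linear axes from 0) by order of the library number, with 8 libraries per order, the amygdala in red on the left and the ventral striatum in blue on the right of each panel. miR-411-5p in the third ventral striatum libraries (635 to 882 RPM) lies below the other libraries of that region, and miR-376c-5p lies above all others there.

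In the third ventral striatum libraries miR-541-5p and miR-376c-5p stood apart as well. In the ventral striatum miR-541-5p had a mean of 9512 RPM in the third libraries against 6895 and 7143 RPM in the first and second, and its lowest value there, 8891 RPM, was above the highest of the others, 8026 RPM. In the amygdala its means were 7303, 8514 and 9115 RPM, which did not pass by order (adjusted p = 0.132, limma). miR-376c-5p, described here after its values were seen, was at 7.74 to 16.7 RPM (median 13.7) in the third ventral striatum libraries, and no other library of either region was above 1.12 RPM.

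Beside the near copy miR-376b-5p, which had a mean of 593 RPM, these are small values, and only 4 of the other 16 ventral striatum and 1 of the 24 amygdala libraries held any miR-376c-5p. In the ventral striatum miR-409a-5p had means of 352, 319 and 130 RPM in the same order. Comparisons between the regions of these members are therefore given within each order as well.

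Of the members that differed between the regions, all but miR-496-3p were lower in the amygdala than in the ventral striatum. The fit used log2(RPM + 1) of all 968 names that passed the filter, 88 of them members, and at an adjusted p under 0.05 (limma, Benjamini-Hochberg over the 968) 27 members differed, 26 lower and 1 higher in the amygdala. Over all names 28.5% differed, 20.4% lower and 8.16% higher, so the share of members called (30.7%) was near that over all names. Of the members called 26 of 27 were lower, and of all names called 197 of 276. The median log2 difference was −0.23 over the 88 members and −0.08 over all 968 names, and 19 of the 88 differences were above 0. Of the mature members 12 of 56 were called, 11 of them lower, and of the precursors 15 of 32, all lower. No share over all mature or all precursor names is given here, so these counts are not a result about either kind. After median-ratio rescaling 24 members (27.3%) were called, 4 higher and 20 lower, against 23.1% of all names, with medians of −0.16 over the members and −0.03 over all names. Library numbers run in consecutive pairs, an odd one of the ventral striatum and the next of the amygdala, both of one sex and treatment. With consecutive library numbers as a random block 27 members were called, without a share over all names given here, but the labels do not say whether such a pair shares rats.

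**Figure D3:**
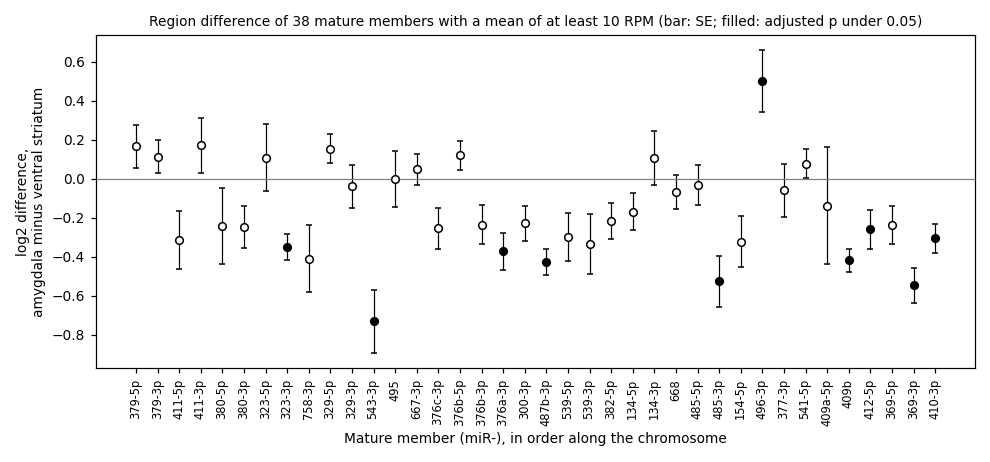
Log2 difference of amygdala minus ventral striatum on the log2(RPM + 1) scale with its standard error (bars) for the 38 mature members with a mean of at least 10 RPM, in their order along the chromosome. Filled points passed the adjusted p of 0.05, and all of them but miR-496-3p (0.50) lie below 0.

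Among the abundant members, miR-409b was at 897 to 1813 RPM in the amygdala (median 1418) and at 1414 to 2324 RPM in the ventral striatum (median 1847). The amygdala mean of 1389 ± 213 RPM lay below the ventral striatum mean of 1850 ± 250 RPM (SD, n = 24 each), and the ranges overlapped. The log2 difference was −0.42 (SE 0.06, adjusted p = 9.78e-07, limma), and −0.40, −0.46 and −0.40 in the 3 orders of library number.

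miR-487b-3p gave the same picture. Amygdala libraries were at 807 to 1612 RPM (median 1217) and ventral striatum libraries at 1275 to 1959 RPM (median 1599), with a log2 difference of −0.42 (SE 0.07, adjusted p = 8.05e-06, limma). miR-410-3p, the leading member, was at 6337 to 16053 RPM (median 9913) in the amygdala and at 10581 to 16021 RPM (median 12422) in the ventral striatum, a log2 difference of −0.30 (SE 0.07, adjusted p = 0.00229, limma). The highest values of miR-410-3p were nearly equal in both regions, and the lowest reached further down in the amygdala. miR-300-3p, the third in abundance, did not pass, with means of 3979 ± 1034 and 4561 ± 654 RPM (SD, n = 24 each), a log2 difference of −0.23 and an adjusted p of 0.0581 (limma).

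Members known to act on N-cadherin in newborn neurons, miR-369-3p, miR-496 and miR-543, differed in opposite directions. miR-369-3p was at 153.97 to 380.96 RPM (median 231) in the amygdala and at 275 to 492 RPM (median 324) in the ventral striatum, a log2 difference of −0.55 (SE 0.09, adjusted p = 1.49e-05, limma). miR-543-3p was at 4.66 to 23.7 RPM (median 13.97) and 10.2 to 34.4 RPM (median 22.7), with −0.73 (SE 0.16, adjusted p = 7.88e-04, limma). Both were lower in the amygdala in all 3 orders of library number, with ranges that overlapped.

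In the fit to all libraries without rescaling or covariates, miR-496-3p was the one member called higher in the amygdala. It was at 54.7 to 279 RPM there (median 146) and at 49.7 to 220 RPM in the ventral striatum (median 81.2). The log2 difference was 0.50 (SE 0.16, adjusted p = 0.0169, limma), 0.70, 0.17 and 0.63 by order of library number. With that order within region as a random block the adjusted p was 0.0774. The precursor mir-496, at 183 ± 52.8 RPM in the amygdala and 159 ± 42.8 RPM in the ventral striatum (SD, n = 24 each), was not called higher.

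Of the other named members, miR-323-3p differed by −0.35 (adjusted p = 1.31e-04, limma) between means of 348 ± 63.4 RPM in the amygdala and 439 ± 55.9 RPM in the ventral striatum (SD, n = 24 each). miR-485-3p differed by −0.53 (adjusted p = 0.00242, limma) between 61.01 ± 20.1 and 86.5 ± 22.4 RPM. miR-376c-5p was called as well, with −1.36 (adjusted p = 0.0137, limma), but its difference came from the third libraries (−3.63, against −0.33 and −0.14 in the first and second), and it passed the filter through the group where it was high. In no member were the ranges of the 2 regions apart.

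Within each order of library number the same comparison was run as values with no test. The median difference of the members was −0.19, −0.29 and −0.12 in the first, the second and the third libraries, against −0.03, −0.13 and −0.06 over all names. Of the 88 members 43 were lower in the amygdala in all 3 orders and 2 higher, and over all 968 names 33.99% were lower and 16.3% higher in all 3. Of the 27 members called, 24 kept one sign in all 3 orders. With the order within region as a random block 18 members were called, all lower, again without a share over all names given here.

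miR-411-5p, miR-379-5p, miR-541-5p and miR-409a-5p, which moved with the order, did not pass between the regions. For miR-411-5p the log2 difference was −0.31 (adjusted p = 0.116, limma), and −0.02, −0.99 and 0.07 in the 3 orders. It did pass with the order as a block (adjusted p = 0.0168, limma), and without the third ventral striatum libraries (−0.60, adjusted p = 0.00283), but not with the order within region as a random block (adjusted p = 0.167).

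The log2 difference of miR-379-5p was 0.17 (adjusted p = 0.264, limma), and −0.15, 0.62 and 0.03 in the 3 orders. miR-541-5p, the second in abundance, differed by 0.08 (adjusted p = 0.486, limma) and by 0.07, 0.24 and −0.07 in the orders, and without the third ventral striatum libraries it passed, with 0.23 (adjusted p = 0.0211). miR-409a-5p differed by −0.14 (adjusted p = 0.793, limma) and by −0.82, −0.13 and 0.54. In these 4 members the direction between the regions depended on which libraries were set against each other.

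The choroid plexus miRNAs, higher in several amygdala libraries, were entered as well. Without the 3 libraries above 50000 RPM the fit called 20 members, 2 higher and 18 lower, and 19 of these were among the 27. That is 22.7% of the members, against 231 of all 964 names in that fit, with medians of −0.14 over the members and −0.07 over all names. With the log2 sum of the choroid plexus list as a covariate 20 members were called, 3 higher and 17 lower, or 22.7% against 23.5% of all names, with medians of −0.13 and −0.07. miR-409b kept −0.35 and −0.34 in these fits, miR-369-3p −0.47 and −0.44, and miR-496-3p 0.60 and 0.54, each with an adjusted p under 0.05 (limma).

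Mature members that differed between the regions lay between miR-323-3p and miR-410-3p. No tested mature member of the miR-379, miR-411, miR-299a and miR-380 hairpins, at the miR-379 end of the cluster, was called. Of the 28 tested mature members nearest to miR-379, 4 were called and the median difference was −0.20. Among these 4 was miR-376c-5p, whose difference came from the third libraries. Of the 28 nearest to miR-410, 8 were called and the median was −0.22. Over all names 28.5% were called, and no share over all mature names is given here, so these counts are not a result about position. A second list of numbers held miRNAs of the same imprinted domain that were not members, such as miR-127, miR-434, miR-337 and miR-431. Of its 40 names tested, 10 (25%) were called between the regions, all lower in the amygdala, with a median of −0.05. This share was near that over all names. The mature names of that list summed to a mean of 169424 RPM in the amygdala and 174838 RPM in the ventral striatum.

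The 2 arms of a hairpin can accumulate unequally, since as a rule one strand is loaded into Argonaute and the other is degraded. Of 27 member hairpins with both arms named, 11 had more 5p and 16 more 3p reads. Of all 27, 16 had more than a 10-fold excess of one arm and 4 less than a 2-fold excess. The most uneven among those with at least 10 RPM in each arm were miR-380, with 1.05% 5p, and miR-411, with 98.5% 5p. The most even were miR-376b, with 47.7% 5p, and miR-539, with 64.3% 5p, whose 5p reads are those shared with an antisense name.

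Between the regions, 10 member hairpins could be tested, and 4 differed at an adjusted p under 0.05 (limma, over 67 hairpins), all with the 5p share higher in the amygdala. Over the 67 hairpins 23.9% differed and 22.4% had the higher 5p share in the amygdala, so this direction was common to hairpins in the table.

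For miR-376b the 5p share was 41.8% to 60.8% in the amygdala (median 50.8%) and 41.3% to 50.9% in the ventral striatum (median 44.2%). The means were 51.05% ± 4.76 and 44.9% ± 2.47 (SD, n = 24 each), with overlapping ranges, and the log2 ratio of the arms differed by 0.36 (SE 0.06, adjusted p = 2.18e-04, limma). By order of library number it differed by 0.20, 0.53 and 0.33, and with that order within region as a random block the adjusted p was 0.0339.

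The other 3 hairpins passed only without that block. miR-485 had a 5p share of 70.0% ± 5.09 over amygdala and 62.1% ± 7.91 over ventral striatum libraries, a log2 difference of 0.49 (adjusted p = 0.00517, and 0.167 with the block, limma). miR-369, whose 5p value is shared with the antisense name miR-3578, had 19.1% ± 2.71 and 16.1% ± 2.56, with 0.31 (adjusted p = 0.00659, and 0.156 with the block). miR-323 had 3.29% ± 1.38 and 2.30% ± 0.678, with 0.46 (adjusted p = 0.0182, and 0.277 with the block; SD, n = 24 each). In all 4 hairpins the difference had one sign in the 3 orders.

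**Figure D4:**
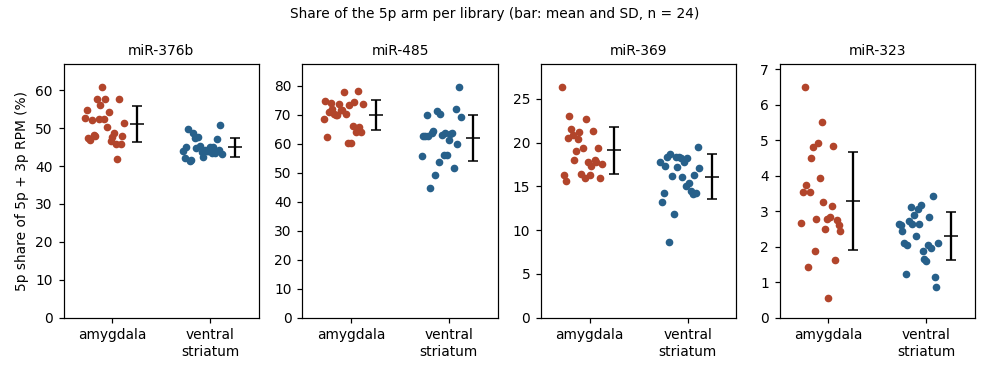
Share of 5p reads (percent of 5p plus 3p RPM, linear axes from 0) per library for the 4 member hairpins whose arm balance passed the test, with bars for the mean and SD (n = 24). The miR-376b hairpin has a mean 5p share of 51.05% over amygdala and 44.9% over ventral striatum libraries, and the libraries overlap in all 4 panels.

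The hairpins that did not pass included miR-134, with a log2 difference of −0.27 (adjusted p = 0.149, limma), and miR-411, with −0.49 (adjusted p = 0.149). The latter difference was 0.04, −1.51 and 0.02 in the 3 orders. In the second libraries miR-411-5p had the lower mean in the amygdala. The mean of miR-411-3p was higher there, at 17.2 RPM against 11.4 RPM in the ventral striatum. miR-329, miR-379, miR-539 and miR-380 differed by 0.19, 0.05, 0.04 and 0.00.

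Prenatal ethanol and social enrichment changed no member at an adjusted p under 0.05 in any of the 8 treatment contrasts (limma, over the 910 names tested in the amygdala, 84 of them members, and the 933 in the ventral striatum, 86 of them members). No other name passed either. The members below are those with the lowest unadjusted p and those tabled by the study.

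In the non-enriched amygdala [A N(EvC)], 7 of the 84 members had an unadjusted p under 0.05, all lower after ethanol, against 4.51% of all names. The median log2 difference was −0.19 over the members and −0.08 over all names, and 8 of the 84 were above 0. In ethanol-exposed rats [A E(SvN)], 5 members had an unadjusted p under 0.05, all higher after enrichment, against 2.64% of all names, with a median of 0.17 over the members and 0.04 over all names, and 71 of the 84 above 0. Both contrasts use the 6 ethanol-exposed non-enriched libraries, with opposite sign, and the precursor mir-299a was in both counts.

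Those 6 libraries hold the 3 with the most choroid plexus miRNAs. Without these 3 the median of the members was 0.08 in A N(EvC) and −0.09 in A E(SvN), both with the sign turned, and 2 members had an unadjusted p under 0.05 in each contrast, miR-299a-3p and miR-667-3p (both lower) in A N(EvC) and miR-299a-3p and miR-541-3p (both higher) in A E(SvN). In that fit the ethanol-exposed non-enriched females are 1 library, assumed to vary like the other groups. With the log2 sum of the choroid plexus list as a covariate the medians were −0.04 and 0.09, and with median-ratio rescaling −0.09 and 0.10.

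**Figure D5:**
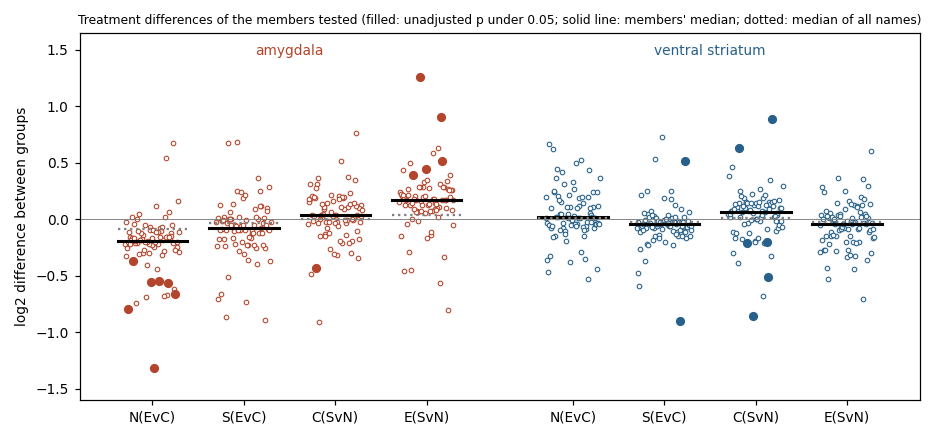
Log2 differences on the log2(RPM + 1) scale of the members tested (84 for amygdala, 86 for ventral striatum) in the 8 treatment contrasts, filled where the unadjusted p was under 0.05, with a solid line at the members' median and a dotted line at that of all names. The members' median is −0.19 in A N(EvC) and 0.17 in A E(SvN), which share the ethanol-exposed non-enriched libraries, and 0 members pass the adjusted p of 0.05 in any contrast.

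Of the members lower in A N(EvC), miR-496-3p was at 54.7 to 174 RPM after ethanol (median 106) and at 141 to 279 RPM in controls (median 172). The means were 112 ± 42.3 and 187 ± 47.6 RPM (SD, n = 6 each), with overlapping ranges and a log2 difference of −0.79 (SE 0.30, adjusted p = 0.842, limma), and an exact two-sided permutation test of the means gave p = 0.0173. Its precursor mir-496 had 145 ± 48.0 and 223 ± 50.9 RPM, with −0.66 (exact permutation p = 0.0173).

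miR-495, a miRNA known to target Bdnf, was at 83.1 to 168 RPM after ethanol (median 103) and at 109 to 204 RPM in controls (median 166), with −0.55 (exact permutation p = 0.0281). mir-299a was at 14.04 to 34.04 RPM (median 23.5) and 25.7 to 41.0 RPM (median 37.9), with −0.56 (exact permutation p = 0.0238), and miR-667-3p at 19.5 to 29.5 RPM (median 26.2) and 26.5 to 41.0 RPM (median 32.7), with −0.37 (exact permutation p = 0.0216). The groups overlapped in each of them. Without the 3 libraries highest in choroid plexus miRNAs the log2 difference was −0.38 for miR-496-3p, −0.24 for mir-496 and −0.22 for miR-495. For mir-299a it was −0.38 and for miR-667-3p −0.44.

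miR-412-3p had the lowest unadjusted p of the members, but it lay near the floor of 3 reads, at 0 to 7.60 RPM after ethanol (median 1.24) and at 2.04 to 8.38 RPM in controls (median 6.13). The log2 difference was −1.32 (exact permutation p = 0.0411) and −0.37 without the 3 libraries highest in choroid plexus miRNAs. miR-299a-5p had means of 8.34 ± 4.38 and 12.9 ± 3.02 RPM (SD, n = 6 each; exact permutation p = 0.0671). All these members had an adjusted p of 0.842 in A N(EvC) (limma).

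In A E(SvN), miR-376b-5p was at 558 to 953 RPM in enriched (median 660) and at 398 to 772 RPM in non-enriched rats (median 495.2). The log2 difference was 0.45 (SE 0.16, adjusted p = 1, limma), or 0.17 without the 3 libraries highest in choroid plexus miRNAs, and the exact permutation p was 0.0671. miR-379-3p was at 96.4 to 149 RPM (median 118) and at 73.9 to 111 RPM (median 92.0), with 0.39 (exact permutation p = 0.0346), again with overlap. Its difference was 0.13 without those 3 libraries. mir-299a, at 26.1 to 44.5 RPM in enriched rats (median 31.9), was 0.52 above the same non-enriched libraries as before (exact permutation p = 0.0325), and miR-299a-3p, with 7.79 ± 5.56 and 4.01 ± 2.65 RPM (SD, n = 6 each), gave an exact permutation p of 0.136. Without the same 3 libraries mir-299a gave 0.34, while miR-299a-3p gave 1.46 against 0.91 with them. The remaining member of the 5 was miR-541-3p, with values around the floor.

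The other amygdala contrasts held little. In A S(EvC) 0 of 84 members had an unadjusted p under 0.05 (3.85% of all names), and the lowest was miR-494-3p, with 1.47 ± 1.33 RPM after ethanol and 3.17 ± 1.78 RPM in controls (SD, n = 6 each), values around the floor. In A C(SvN) 1 member did (2.64% of all names), miR-667-3p, at 18.4 to 36.9 RPM in enriched (median 21.7) and 26.5 to 41.0 RPM in non-enriched rats (median 32.7), with −0.43 (exact permutation p = 0.0411, adjusted p = 1, limma). Of the ethanol by enrichment interaction in the amygdala 4 members had an unadjusted p under 0.05, all above 0 (3.85% of all names), led by mir-299a with 0.82 (SE 0.28, adjusted p = 0.957, limma) and followed by miR-541-3p, mir-496 and miR-496-3p.

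In V N(EvC), the first of the ventral striatum contrasts, 0 of 86 had an unadjusted p under 0.05 (2.04% of all names), and the 2 lowest were miR-329-3p, with 100 ± 25.9 RPM after ethanol and 73.2 ± 8.08 RPM in controls, and miR-496-3p, with 122 ± 34.6 and 78.3 ± 32.3 RPM (SD, n = 6 each). miR-496-3p, lower after ethanol in the non-enriched amygdala, thus had the higher mean after ethanol here, with overlap in both regions, and the difference between the regions' effects was not tested.

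In V S(EvC) 1 member, miR-323-5p, was higher and 1 lower (2.25% of all names), the latter miR-487b-5p, above 0 in 3 of 6 ethanol-exposed and in 6 of 6 control libraries but at or below 2.68 RPM in all of them. In V C(SvN) 2 were higher, miR-382-3p and miR-541-3p (at most 3.79 RPM, around the floor), and 4 lower (3.86% of all names). Among the latter were miR-487b-3p, with 1542 ± 268 RPM in enriched and 1771 ± 130 RPM in non-enriched rats (exact permutation p = 0.0974; SD, n = 6 each), and miR-299a-3p, with 5.61 ± 1.28 and 8.64 ± 2.79 RPM (exact permutation p = 0.0455).

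In V E(SvN) 0 members had an unadjusted p under 0.05 (1.82% of all names), and miR-409b was lowest in p, with 1707 ± 115 RPM in enriched and 1977 ± 281 RPM in non-enriched rats (SD, n = 6 each; exact permutation p = 0.0541). The interaction in the ventral striatum gave 1 member (2.57% of all names), miR-382-3p, with −0.58 (adjusted p = 1, limma). miR-381-5p, which the study also tabled, was above 0 in 4 libraries, all of the ventral striatum, and was not tested.

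Between females and males 4 of the 88 members had an unadjusted p under 0.05, 1 with the higher mean in females, miR-323-5p, and 3 in males, against 3.93% of all names, and 0 an adjusted p under 0.05 (limma). The lowest were the precursors mir-409a, with 1354 ± 288 RPM in females and 1485 ± 248 RPM in males (SD, n = 24 each; permutation p = 0.0975), and mir-409b, whose reads overlap with it, with 208 ± 44.2 and 228 ± 38.1 RPM.

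Members varied together from library to library, most of all in the amygdala. Deviations of log2(RPM + 1) from the means of the 16 cells of region, sex and treatment were correlated over the 48 libraries for the 38 mature members with a mean of at least 10 RPM. The median r between pairs of members was 0.29 (0.42 in the amygdala, 0.11 in the ventral striatum), against 0.07 between a member and one of 269 other mature names. The libraries share depth, dissection and a fixed total, so these values are a description. The median coefficient of variation of a member was 27.6% over amygdala and 20.97% over ventral striatum libraries, against 22.0% and 19.1% for the other names.

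miR-300-3p (r = 0.93) and miR-410-3p (0.91), themselves large parts of it, followed the joint level most closely, then miR-376b-3p (0.86) and miR-369-3p (0.80). The least like it were miR-409a-5p (0.07), miR-411-3p (0.10) and miR-377-3p (0.11). Among names other than the members, the most like it were miR-434-3p (0.79), miR-3543 (0.78), which is antisense to miR-434, and miR-337-3p (0.76). Opposite to it went miR-27b-3p, with r = −0.77 over 48 libraries, −0.80 over the 24 amygdala and −0.68 over the 24 ventral striatum libraries.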

How the data were processed

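The authors deposited 1 table that gives each library a normalized signal for every miRBase name, which its title calls RPM. They trimmed reads at a Phred quality of 20, aligned them with Bowtie to the rat genome Rn5 and quantified them in Partek Flow. Versions of these tools are not given in the sources used here. Mature names were scaled to 1000000 per library, and precursor names separately to another 1000000. The tests were written for RPM and needed no change. Names on several lines were added up, which touched no member, and 0 columns of values could not be mapped to a sample. By the smallest step between values (tolerance 0.02 reads), 92.1% to 99.5% of low mature and 81.2% to 88.5% of low precursor values were whole reads, so no count test was used, and limits in reads cover counting error only.

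Members, lists and tests were chosen with earlier results of these data known. The fits to log2(RPM + 1) were made with limma 3.58.1 in R 4.3.3 (moderated, with a trend), over names above 0 in at least 6 libraries, two-sided, with Benjamini-Hochberg adjustment over all names. The precursor mir-299b passed this filter without reads in the amygdala, where it held at most 1.97e-12 RPM, and is among the members counted as tested. How many other names passed in this way is not given here. Such names can lower the shares called and draw the medians toward 0. The region and sex differences used 48 libraries in 16 cells of region, sex and treatment, and the treatment contrasts the 24 libraries of a region in 8 cells, averaged over the sexes. Mean RPM were compared by exact permutation over the 924 divisions of 12 libraries (smallest p 0.00216), or by 100000 resamples for 24 against 24, with scipy 1.17.1 under Python 3.11.15. Tables and figures were made with pandas 2.3.3, numpy 2.4.6 and matplotlib 3.10.9. Arm balance was log2 of the 5p over the 3p RPM, each plus 1, in hairpins with a mean of at least 10 RPM in each arm. The calculations were tested on simulated data.

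Named members were the 10 most abundant, the up to 5 called most strongly in each direction between regions (mean of at least 10 RPM), the 2 of lowest p in each contrast, those the study tabled, the hairpins leading the arm comparison and its extremes, and the 3 outside names most like the joint level. The others named, miR-376c-5p among them, were chosen after their values were seen. So were the order of the library number and the choroid plexus list with the settings built on them. The other alternatives were to use mature names only, to keep every name or those with 10 RPM on average, pseudocounts of 0.1 and 10, median-ratio rescaling, a depth covariate, consecutive library numbers as a random block, a replicate block and each library left out.

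Replicates are separate pools. Replicate numbers did not pair them: the median r between the deviations from cell means of equally numbered libraries was 0.00322 (amygdala, 39 of 84 pairs over 0.1) and −0.00212 (ventral striatum, 32 of 84).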

Additional observations from a re-analysis of the deposited data

Results flagged for a closer look

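Among 38 sets of 6 libraries of one region and treatment group examined for a library far from the rest, 2 had one, about as many as chance gives, since about 1 set in 20 is picked out without any cause. miR-412-3p in the ethanol-exposed non-enriched amygdala was at 7.60 RPM in F3, and at 0 to 2.69 RPM in the other 5 libraries, values near the floor of 3 reads. miR-496-3p in the control non-enriched ventral striatum was at 140 RPM in F2, and at 52.5 to 82.96 RPM in the others.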

How the results depend on the processing

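The count of members called between the regions (27) moved by more than 1.5 times under 1 setting, mature names only, where 11 were called; that fit leaves out the precursor members. Under the other settings it lay between 18 and 33, and without 1 library each between 22 and 37. These counts are given without the share over all names in each setting. The count of member hairpins with a different arm balance (4) became 1 with the library number order within region as a random block, and the cause was not tested. With the replicate block 29 members and 4 hairpins were called, and the replicate block changed no other count; replicate numbers share only a number. In the treatment, interaction and sex comparisons 0 members were called under every setting run. The log2 ratio of the joint level between regions stayed negative, from −0.25 (second libraries alone) to −0.10 (rescaled). Of 59 differences of single members refitted under the settings, 58 kept their sign. That of miR-409a-5p between the regions, not called, turned to 0.031 with the choroid plexus covariate and 0.034 without the 3 libraries highest in choroid plexus miRNAs. The values within 1 order of library number are not among these settings, and miR-411-5p, miR-379-5p, miR-541-5p and miR-382-3p changed sign between orders. Without any 1 of 8, 6 and 4 libraries in turn, miR-300-3p, miR-376b-3p and miR-380-3p passed between the regions. With the replicate block miR-411-5p passed as well. miR-382-3p and miR-412-5p, called at adjusted p of 0.0411 and 0.0494 (limma), lost the call under 34 and 46 settings, and miR-376a-3p, miR-410-3p and miR-496-3p under 1 each. Members under 10 RPM are limited by depth, since 3 reads are worth up to 8.26 RPM.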
